A study of Homo sapiens with 6 samples.

Results

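The AP-1 transcription factor genes and 3 other stress and growth factor responsive genes were followed in K562 cells depleted of their own EP400 and complemented with EP400 that was either wild type or lacked the region that binds TRRAP. The 10 genes were fixed by name: FOS, FOSB, FOSL1 and FOSL2 of the Fos family, JUN, JUNB and JUND of the Jun family, and EGR1, ATF3 and IER2. Each symbol matched 1 gene among the 60609 genes of the count files, and all 10 were among the 19114 genes that entered the test. Of these 10 genes, 5 rose in Delta-TRRAP, namely FOSB, FOSL2, EGR1, JUN and FOS, and none fell at the threshold used, an edgeR adjusted p of 0.01, past which 29.6% of all tested genes were higher and 28.9% lower (58.6% in either direction).

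K562 is a chronic myelogenous leukaemia cell line with erythroid features. Its endogenous EP400, the scaffold and remodelling ATPase of the TIP60 complex, carried a degradation tag (EP400-dTAG) in both groups. An exogenous EP400 was expressed from the AAVS1 safe harbour, as the wild-type protein in the WT group and as Delta-TRRAP, which lacks the SANT and HD domains that hold TRRAP, in the other. All cells received 500 nM of the degrader dTAGV-1 for 24 h, and polyadenylated RNA of 3 libraries per group was sequenced. Each complemented line was 1 clone, so the clone and the EP400 allele cannot be told apart, and no cells without the degrader were analysed here. The comparison asks how the mRNA levels of these genes differ when EP400 cannot hold TRRAP.

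AP-1 is a dimer of leucine zipper proteins, made of a Jun protein with a Fos or another Jun protein, or with a protein of the ATF group. Fos proteins do not form stable dimers with themselves, whereas Jun proteins do. Most of these genes are immediate early genes, which means that signals through MAP kinases switch them on within minutes without new protein synthesis, and their mRNAs are short-lived. In haematopoietic cells AP-1 and EGR1 are best known for myeloid and megakaryocytic differentiation.

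The 6 libraries held 35076835 to 42616061 counts in genes. Mitochondrially encoded genes made up 3.18% to 3.71% of them in the WT libraries and 5.07% to 6.24% in the Delta-TRRAP libraries. EP400, the tagged gene, had normalized counts of 4924 to 5425 in WT against 4350 to 6694 in Delta-TRRAP, and this count sums the tagged locus and the transgene. Among 12 erythroid and megakaryocytic markers all were tested, 2 were called higher (HBZ and HBE1) and 3 lower (LMO2, TFRC and ITGA2B). Over all tested genes 16.2% were called higher and 6.34% lower. The erythroid genes GATA1, TAL1 and KLF1 had group means of 3682 to 10753 normalized counts, but HBE1 had only 9.79 in WT and 40.7 in Delta-TRRAP. ITGA2B, a megakaryocytic gene, had 666 and 88.6. The labels call the cells lymphoblasts, but the B and T cell markers MS4A1, CD79A, CD2 and CD7 had means of 0 to 6.67. Summed levels in WT and in Delta-TRRAP were 5626 to 5693 and 3815 to 3932 CPM (counts scaled to library size) for these 12 K562 markers, 398 to 414 and 112 to 125 for 8 lymphoid markers, 216 to 234 and 30.7 to 32.2 for 8 myeloid markers, and 0.872 to 1.43 and 24.5 to 25.9 for 8 fibroblast markers. In each list a single gene carried most of the level: TFRC, PTPRC and LYZ in both groups, and COL1A2 in Delta-TRRAP. TFRC fell by 1.12 on the log2 scale, so the sum of the K562 markers mostly reflects this gene. The part of these markers in the results below was not tested.

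The promoters of the 5 genes that rose are shown with that of JUND, which did not pass the test, because they differ in the motifs known to serve immediate early induction. Each line gives the 250 bases before the RefSeq transcription start on GRCh38.p14, from 5′ to 3′ on the strand of the gene. Capitals mark TGACGT or its reverse complement (the half-site of the cyclic AMP response element), TATAAA, the EGR motif GCGNGGGCG and the CArG box bound by serum response factor.
FOS (chr14:75278578-75278827, plus strand): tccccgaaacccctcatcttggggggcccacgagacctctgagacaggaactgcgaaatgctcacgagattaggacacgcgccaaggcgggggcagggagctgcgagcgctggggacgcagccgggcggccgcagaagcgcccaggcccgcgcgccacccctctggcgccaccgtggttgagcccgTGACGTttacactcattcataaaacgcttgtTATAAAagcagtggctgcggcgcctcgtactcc
FOSB (chr19:45467746-45467995, plus strand): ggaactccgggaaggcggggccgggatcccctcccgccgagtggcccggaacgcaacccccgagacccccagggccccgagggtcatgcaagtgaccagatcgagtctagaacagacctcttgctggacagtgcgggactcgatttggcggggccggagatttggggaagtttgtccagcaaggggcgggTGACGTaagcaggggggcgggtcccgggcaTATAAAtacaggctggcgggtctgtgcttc
FOSL2 (chr2:28392608-28392857, plus strand): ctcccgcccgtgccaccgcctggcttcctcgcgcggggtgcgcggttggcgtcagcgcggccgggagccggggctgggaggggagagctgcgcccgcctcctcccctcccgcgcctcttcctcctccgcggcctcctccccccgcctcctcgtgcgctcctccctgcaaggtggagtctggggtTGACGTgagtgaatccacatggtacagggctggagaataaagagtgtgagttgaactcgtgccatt
EGR1 (chr5:138465229-138465478, plus strand): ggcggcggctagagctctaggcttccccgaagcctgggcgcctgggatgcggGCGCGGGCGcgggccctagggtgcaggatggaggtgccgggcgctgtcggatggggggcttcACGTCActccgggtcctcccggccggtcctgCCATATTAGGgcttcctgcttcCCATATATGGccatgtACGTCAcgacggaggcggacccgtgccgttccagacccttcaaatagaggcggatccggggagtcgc
JUN (chr1:58784048-58784297, minus strand): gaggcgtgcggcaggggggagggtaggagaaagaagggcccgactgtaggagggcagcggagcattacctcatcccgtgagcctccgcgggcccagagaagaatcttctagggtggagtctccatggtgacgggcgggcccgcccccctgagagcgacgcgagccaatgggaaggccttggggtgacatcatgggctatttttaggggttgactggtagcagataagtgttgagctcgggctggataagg
JUND (chr19:18281623-18281872, minus strand): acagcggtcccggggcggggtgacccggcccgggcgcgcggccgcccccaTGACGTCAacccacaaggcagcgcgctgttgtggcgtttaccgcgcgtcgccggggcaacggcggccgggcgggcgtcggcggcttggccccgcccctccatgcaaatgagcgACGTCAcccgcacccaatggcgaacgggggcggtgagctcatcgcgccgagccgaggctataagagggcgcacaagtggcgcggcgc

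Motifs were searched on both strands in 35116 promoter windows of this length. The half-site TGACGT was found in 7.1% of them, and in 4 of the 5 promoters of genes that rose. It lay 64 bases before the start in FOS, 60 in FOSB and 66 in FOSL2, and EGR1 had 2 matches that began 136 and 67 bases before its start. JUN had none, and of the 4 other genes with a promoter in the table JUND alone had it. For ATF3 this covers only the 2 starts in the promoter table, and other starts of the gene were not searched. In JUND, 2 of the 3 matches lie within 1 full palindrome TGACGTCA, a motif found in 1.65% of all windows. The CArG box was found in 1.16% of all windows and among the genes described in EGR1 alone, with 2 matches that began 105 and 83 bases before the start. EGR1 also held the EGR motif, found in 8.41% of all windows. TATAAA was in 10.7% of all windows and in FOS, FOSB, JUNB and 1 of the 2 ATF3 windows. The AP-1 motif TGANTCA, present in 6.57%, had no exact match in the windows of the genes described. Near matches were not counted, and the JUN window holds TGACATCA, a near match of the palindrome TGACGTCA. The GC box GGGCGG was in 42.6% of all windows. The median GC content of all windows was 58%, and that of the 5 genes that rose was 62.0% (JUN) to 69.6% (FOSL2). The shares over all windows were not matched for GC content. The FOSL2 window lies within the span of the gene given below, which begins at 28392448. FOSL1 had no entry in the promoter table, and the half-site was added to the search after the sequences had been seen. These windows do not reach elements farther upstream.

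In the comparison of Delta-TRRAP with WT, 3 of the 10 genes were called higher and 0 were called lower. A gene was called where its edgeR adjusted p was at most 0.01 and it changed by 2-fold or more, and of all 19114 genes tested 16.2% were called higher, 6.34% lower and 22.5% in either direction. By the adjusted p alone, 5 genes were higher, against 29.6% of all genes, and 0 were lower, against 28.9% (58.6% in either direction). An unadjusted edgeR p under 0.05 was reached by 6 genes. The share of all tested genes at this looser cut was not computed, so this count says nothing particular about these genes. No overlap between the libraries of WT and Delta-TRRAP was found for 5 genes that were higher, against 36.0% of all genes, and for FOSL1, which was lower, against 35.1% (71.1% in either direction). The median log2 fold change of the 10 genes was 0.45, and that of all tested genes was 0.0057. The word rose is used here for genes past the adjusted p.

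**Figure D1:**
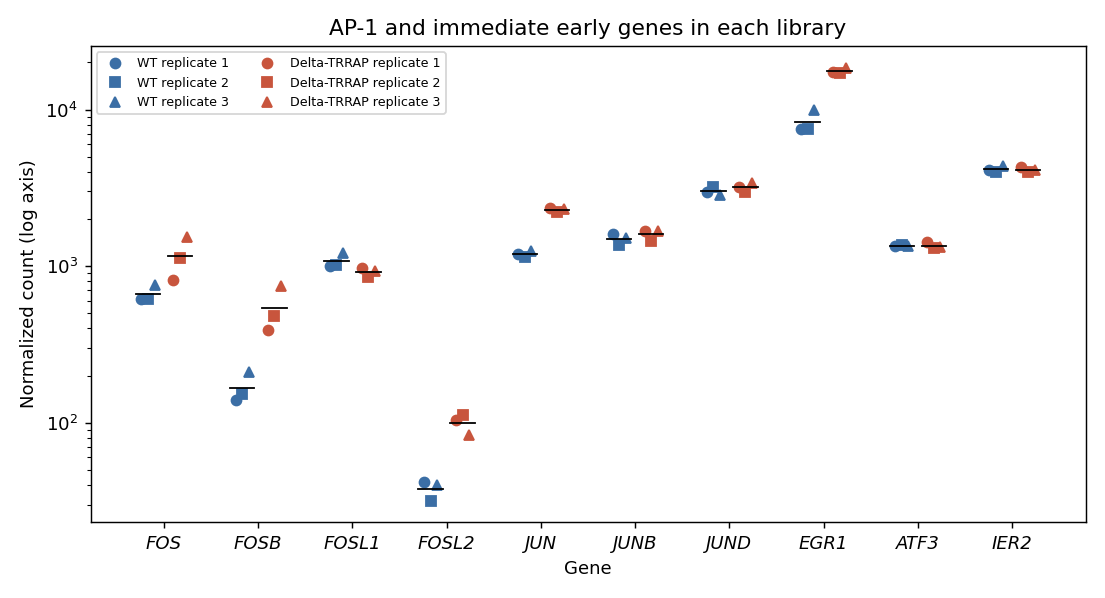
Normalized counts of the 10 genes in each library, on a log axis, with WT in blue, Delta-TRRAP in red, a symbol for each replicate number and a black line at each group mean. The groups are apart for FOS, FOSB, FOSL2, JUN and EGR1, lie close for FOSL1 without overlap, and overlap for JUNB, JUND, ATF3 and IER2.

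FOS, the founding member of its family, encodes a short-lived protein that needs a Jun partner to bind DNA. Its normalized counts, which are counts scaled to a common library size, were 616, 620 and 755 in the WT libraries. In the Delta-TRRAP libraries they were 816, 1124 and 1536. All Delta-TRRAP libraries lay above all WT libraries, but they differed among themselves by 1.88-fold. FOS (ENSG00000170345.10, chromosome 14, 75278826 to 75282230) rose by 0.80 ± 0.16 (SE) on the log2 scale (edgeR adjusted p 0.000374). The fold change was 1.74 with a 95% interval of 1.38 to 2.21, so a change of 2-fold lies within the interval. Single libraries moved this value: it was 0.55 without Delta-TRRAP replicate 3 and 1.00, which made it a called gene, without Delta-TRRAP replicate 1.

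FOSB encodes a close relative of FOS, with a truncated splice form that lacks part of the activation domain and that gene counts do not separate. Its normalized counts were 139, 153 and 209 in WT and 392, 483 and 742 in Delta-TRRAP. The lowest Delta-TRRAP library was above the highest WT library, and the spread in Delta-TRRAP was again wide, at 1.89-fold. FOSB (ENSG00000125740.14, chromosome 19, 45467995 to 45475179) had the largest change of the 10 genes in these libraries, 1.68 ± 0.20 (SE) in log2 or 3.21-fold (edgeR adjusted p 2.1e-06). Its rank rests on Delta-TRRAP replicate 3, without which FOSB stood at 1.39 and FOSL2 at 1.51 in log2. ERCC1 overlaps it on the opposite strand, and the reads were counted by strand.

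FOSL2, which encodes Fra-2, was the least abundant. It had 42.0, 31.8 and 40.0 normalized counts in WT and 104, 112 and 83.4 in Delta-TRRAP. The groups did not overlap, on raw counts of only 33 to 41 and 79 to 117. FOSL2 (ENSG00000075426.12, chromosome 2, 28392448 to 28417317) rose by 1.40 ± 0.17 (SE) in log2 or 2.63-fold (edgeR adjusted p 3.5e-06).

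FOSL1 encodes Fra-1, which is more stable than FOS and often remains after the early response has faded. It had 1007, 1013 and 1208 normalized counts in WT and 968, 849 and 928 in Delta-TRRAP. The 3 Delta-TRRAP libraries lay just below the 3 WT libraries. The log2 fold change of FOSL1 (ENSG00000175592.9, chromosome 11, 65892049 to 65900573) was -0.23 ± 0.08 (SE), and its edgeR adjusted p of 0.0125 missed the threshold of 0.01. Over 13 alternatives the adjusted p ranged from 0.00142 to 0.385 and the log2 fold change from -0.293 to -0.077.

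JUN encodes the Jun protein that binds DNA as a homodimer or with Fos proteins. It had 1203, 1152 and 1255 normalized counts in WT and 2360, 2224 and 2307 in Delta-TRRAP. Both groups were narrow and lay far apart. JUN (ENSG00000177606.7, chromosome 1, 58776845 to 58784048) rose by 0.93 ± 0.05 (SE) in log2 (edgeR adjusted p 5.4e-10). The fold change was 1.91, with a 95% interval of 1.76 to 2.07, so JUN was not called although its adjusted p was the lowest of the 10 genes.

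JUNB and JUND, which are weaker activators than JUN and can oppose it, stayed within the spread of the libraries. JUNB (ENSG00000171223.6, chromosome 19, 12791486 to 12793315) had 1600, 1355 and 1507 normalized counts in WT and 1665, 1442 and 1670 in Delta-TRRAP. Its fold change was 1.07 (95% interval 0.965 to 1.19, edgeR adjusted p 0.229). JUND (ENSG00000130522.6, chromosome 19, 18279694 to 18281622) had 2987, 3188 and 2842 normalized counts in WT and 3220, 2966 and 3370 in Delta-TRRAP. Its fold change was 1.06 (95% interval 0.971 to 1.16, edgeR adjusted p 0.226). With libraries scaled by their size alone, under which the median over all genes went from 0.0057 to 0.17 in log2, both passed the adjusted p, at log2 fold changes of 0.26 and 0.24.

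EGR1 encodes a zinc finger factor outside AP-1 that is induced through serum response factor and its ETS partners. It was the most abundant of the 10 genes per length in both groups. Its normalized counts were 7505, 7480 and 9918 in WT and 17320, 17046 and 18527 in Delta-TRRAP. Every Delta-TRRAP library was above every WT library, and WT replicate 3 stood above the other WT libraries. EGR1 (ENSG00000120738.8, chromosome 5, 138465479 to 138469303) rose by 1.09 ± 0.09 (SE) in log2 (edgeR adjusted p 2.8e-08). The fold change was 2.12, with a 95% interval of 1.87 to 2.42.

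ATF3 and IER2 showed no difference beyond the spread between libraries. ATF3, a stress-induced repressor that pairs with Jun proteins (ENSG00000162772.17, chromosome 1, 212565334 to 212620777), had 1350, 1355 and 1345 normalized counts in WT. In Delta-TRRAP it had 1433, 1306 and 1320. Its fold change was 1.00, with a 95% interval of 0.925 to 1.09. IER2, which encodes a small nuclear immediate early protein (ENSG00000160888.7, chromosome 19, 13150411 to 13154911), had 4107, 4016 and 4359 normalized counts in WT and 4272, 3973 and 4124 in Delta-TRRAP. Its fold change was 0.991, with a 95% interval of 0.918 to 1.07. The edgeR adjusted p was 0.963 for ATF3 and 0.834 for IER2, and the sign of both changed between alternatives.

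**Figure D2:**
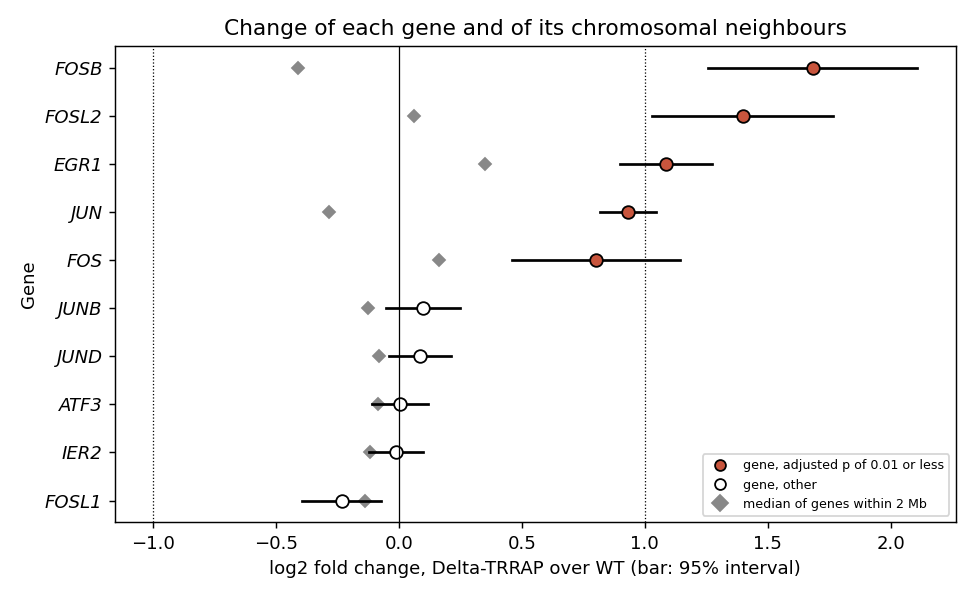
Log2 fold change of each gene, Delta-TRRAP over WT, with its 95% interval, beside the median of the expressed genes within 2 Mb (grey diamonds); dotted lines mark a 2-fold change. FOSB rose by 1.68 where its neighbours had a median of -0.41, and EGR1 by 1.09 where its neighbours had a median of 0.35.

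To set each change beside its chromosomal surroundings, the genes within 2 Mb that averaged 100 or more normalized counts were taken. Around EGR1, the median log2 fold change of 31 genes was 0.35, so a shift in the same direction surrounded this gene. Around FOSB, 78 genes had a median of -0.41, opposite to the change of FOSB. Around FOS the median was 0.16 over 36 genes and around FOSL2 it was 0.059 over 32 genes, or -0.049 over 64 genes within 5 Mb. JUN had only 4 such neighbours, with a median of -0.29. The other 5 genes had neighbourhood medians of -0.14 to -0.082.

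Levels between genes were compared as normalized counts per kilobase of merged exons. In WT the order was EGR1 (2646 ± 446), JUND (1558 ± 89.9), IER2 (1351 ± 57.8), JUNB (813 ± 67.6), FOSL1 (570 ± 60.7), ATF3 (338 ± 1.31), JUN (332 ± 14.3), FOS (208 ± 24.9), FOSB (30.1 ± 6.68) and FOSL2 (5.30 ± 0.753), each with SD and n = 3. In this order ATF3 and JUN differed by less than the SD of JUN. In Delta-TRRAP, JUN (634 ± 18.9 per kilobase) moved above FOSL1 (485 ± 32.1), and FOS (364 ± 113) reached the level of ATF3 (338 ± 17.5), from which it differed by less than its SD. The place of ATF3 depends on the length used, since its merged exons are 3998 bases and its longest transcript is 2103. The order of FOS and FOSL1 in Delta-TRRAP depends on it too. Per kilobase of the longest transcript they had 551 ± 171.5 and 538 ± 35.5 (SD, n = 3), a difference smaller than the SD of FOS.

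The make-up of both families therefore differed between the groups. FOSL1 made up 69.5% to 70.4% of the Fos family reads per kilobase in the WT libraries. In the Delta-TRRAP libraries its share was 60.1%, 49.7% and 43.95%. The share of FOS was 25.5% to 25.8% in WT and 30.0%, 39.0% and 43.1% in Delta-TRRAP, and that of FOSB went from 3.31% to 4.10% in WT to 8.27% to 11.9% in Delta-TRRAP. FOSL2 stayed under 2% in every library. In the Jun family, JUND held the largest share in all libraries, with 55.7% to 61.0% in WT against 51.7% to 53.0% in Delta-TRRAP. JUN held 11.7% to 13.1% in WT against 19.3% to 20.9% in Delta-TRRAP. The summed level per kilobase was 814 ± 92.4 in WT and 960 ± 141 in Delta-TRRAP for the Fos family, with overlapping libraries, and 2703 ± 56.2 and 3155 ± 190 for the Jun family (SD, n = 3), without overlap. These are shares of mRNA and are given as a description.

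**Figure D3:**
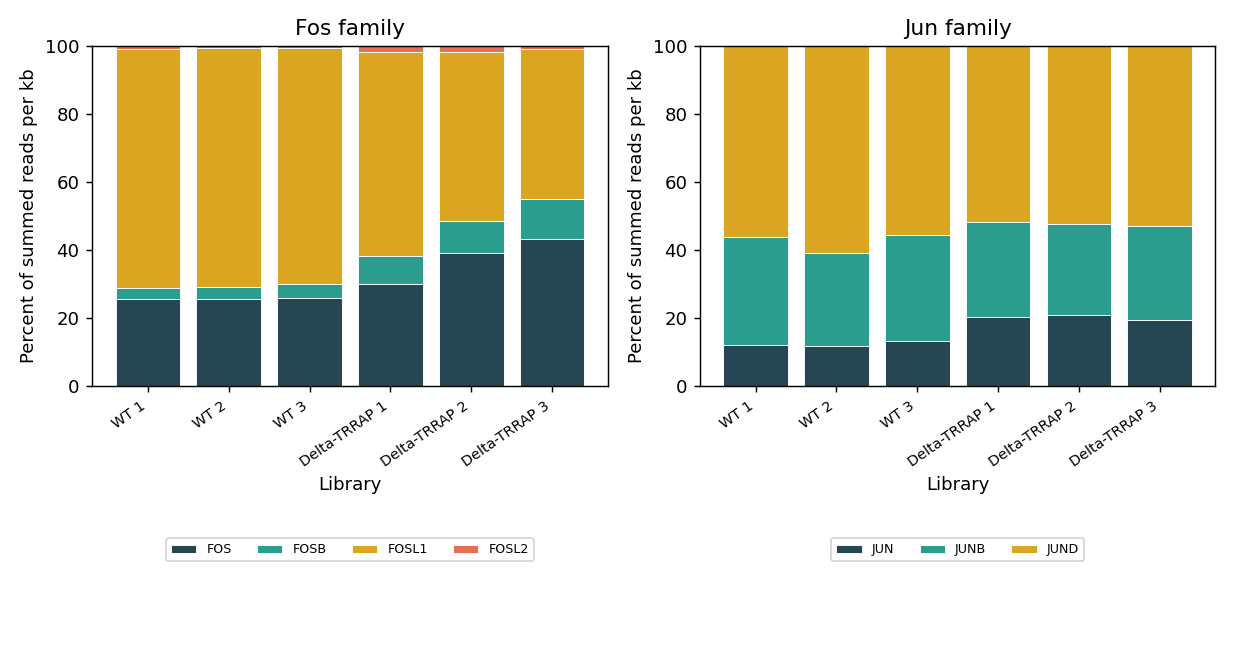
Share of each gene in the summed reads per kilobase of merged exon of its family, in percent, for each library. FOSL1 holds 69.5% to 70.4% of the Fos family in WT and 43.95% to 60.1% in Delta-TRRAP, and the JUN share is higher in all Delta-TRRAP libraries.

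The libraries of a group did not vary alike for all genes. In Delta-TRRAP the coefficient of variation was 31.1% for FOS and 33.7% for FOSB, against a median of 5.28% over the 11462 genes that averaged 100 or more normalized counts. Only 0.297% and 0.174% of those genes varied as much or more. In WT the values were 12.0% for FOS and 22.2% for FOSB, against a median of 4.26%. JUN, JUNB, JUND, ATF3 and IER2 had values of 0.389% to 8.31% in both groups. The deviations of FOS and FOSB from their group means went together, with a Pearson r of 0.955 over the 6 libraries. It was slightly higher for JUN with IER2 (0.971) and FOSL1 with IER2 (0.957), whose deviations were smaller. FOS and FOSB were both highest in replicate 3 of each group. For EGR1, WT replicate 3 was also highest, but the Delta-TRRAP libraries differed by only 1.09-fold. Replicate 3 had the fewest counts and the highest mitochondrial share of each group, 3.71% in WT and 6.24% in Delta-TRRAP. In WT, replicates 1 and 2 had mitochondrial shares of 3.64% and 3.18%, while FOS and FOSB were slightly lower in replicate 1. A link to these library traits was not tested. Over all 45 pairs of the 10 genes the median r of the deviations was 0.18, 5 pairs had an r of 0.8 or more, and 1 pair, FOSL2 and JUND, had an r below -0.8. These correlations rest on 6 libraries that share their scaling.

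**Figure D4:**
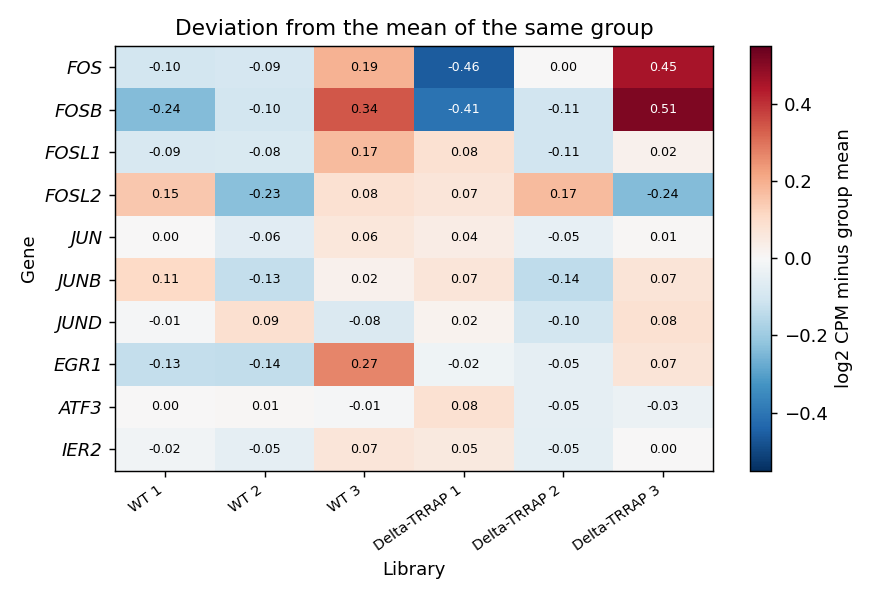
Deviation of log2 CPM from the mean of the same group, for each gene and library, with red above and blue below the mean. FOS and FOSB reach 0.45 and 0.51 in Delta-TRRAP replicate 3 and -0.46 and -0.41 in Delta-TRRAP replicate 1, while JUN stays between -0.06 and 0.06.

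The genes whose log2 CPM followed the same course over the 6 libraries were sought for FOS, JUN and EGR1 among 11461 others. For FOS they were LINC02772 (Pearson r 0.99) and MUC1 (0.98), for JUN C11orf49 and YPEL4 (both above 0.999), and for EGR1 ZNF548 (0.999) and DIPK1A (0.998). An r of at least 0.9 was reached by 165 genes for FOS, 2729 for JUN and 2517 for EGR1. For JUN and EGR1, many genes that were higher in Delta-TRRAP with little spread within the groups are alike in this sense. FOS varied more within Delta-TRRAP, and LINC02772 and MUC1 had log2 fold changes of only 0.19 and 0.18.

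Other immediate early genes were taken from a list of 27, of which 25 were tested, since EGR4 was at 0 in all libraries and RHOB was too low. Of the 25, 8 were called higher and 0 lower, and their median log2 fold change was 0.53. By the adjusted p alone, 12 were higher and 3 lower. The shares over all tested genes were 16.2% called higher and 6.34% called lower, and 29.6% and 28.9% by the adjusted p alone. BTG2, an antiproliferative gene that is also induced by p53, had 2005, 2023 and 2024 normalized counts in WT and 9525, 8980 and 9463 in Delta-TRRAP. It rose by 2.21 ± 0.05 (SE) in log2, the largest of those that averaged 100 or more normalized counts. BTG1, of the same family, rose from 2067 ± 104 to 7096 ± 548 (SD, n = 3), SGK1, a serum and glucocorticoid induced kinase, from 390 ± 10.9 to 1087 ± 79.4, and KLF6, a zinc finger factor, from 1248 ± 79.6 to 2843 ± 51.9. For all 4 the edgeR adjusted p was at most 5.7e-11. The other genes called higher were KLF4, CSRNP1, GEM and ARC. EGR2 (log2 fold change -0.47 ± 0.29, SE) and EGR3 (0.55 ± 0.27, SE), the nearest relatives of EGR1, had means of 17.6 to 35.3 normalized counts and did not pass. NR4A1, NR4A2 and NR4A3, MYC and PPP1R15A did not pass either. CCN1 fell by 0.73 on the log2 scale, ZFP36L1 by 0.55 and MCL1 by 0.26, all past the adjusted p. Genes outside the top 4 of the rule were named after their values had been seen.

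**Figure D5:**
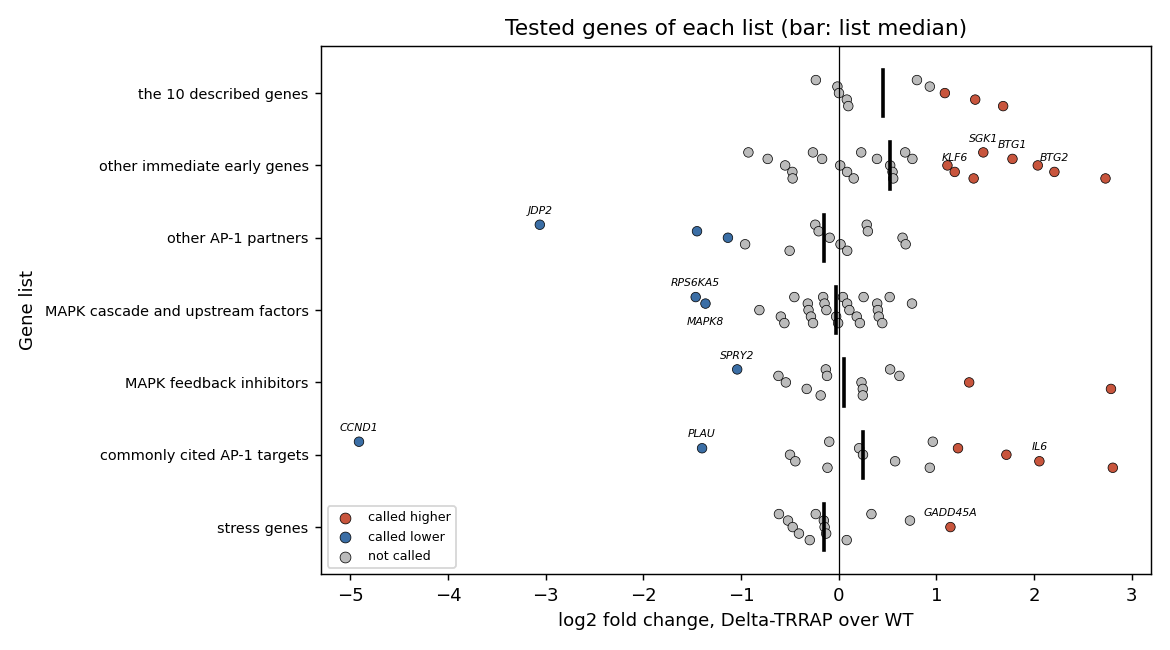
Log2 fold change, Delta-TRRAP over WT, of the tested genes of each list, with a bar at the list median and colours for genes called higher (red), called lower (blue) or not called (grey). Of the other immediate early genes 8 are called higher and 0 lower, and JDP2 stands apart at -3.06 among the AP-1 partners.

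Among 16 other leucine zipper genes whose products join AP-1 or its sites, 14 were tested, 0 were called higher and 3 lower, with a median log2 fold change of -0.15. JDP2, which encodes a repressor that dimerizes with Jun proteins, had 476, 417 and 443 normalized counts in WT and 60.6, 57.3 and 41.2 in Delta-TRRAP. No library came near the other group, and JDP2 changed by -3.06 ± 0.12 (SE) in log2 (edgeR adjusted p 9.0e-12). JDP2 (chromosome 14, 75427716 to 75474111) starts 149 kb from FOS, and BATF (75522455 to 75546993) starts 244 kb from it. BATF, an AP-1 partner of lymphoid cells, was called lower too, on counts of 15 to 19 in WT against 3 to 9 in Delta-TRRAP. BATF was not called by DESeq2 (adjusted p 0.0132) or without Delta-TRRAP replicate 3 (edgeR adjusted p 0.0116). BATF3 was the other called gene, at -1.13 ± 0.21 (SE), or -0.98 and not called with library size scaling. By the adjusted p alone, 4 of the 14 were higher, among them NFE2 (0.69 ± 0.05, SE) and BACH1 (0.65 ± 0.06, SE). Another 7 were lower by it, among them ATF2 (-0.50 ± 0.05, SE). The shares over all tested genes were 16.2% called higher and 6.34% called lower, and 29.6% and 28.9% by the adjusted p alone.

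The genes upstream of the immediate early response moved in both directions, as did all tested genes. Of all tested genes 16.2% were called higher and 6.34% lower, and by the adjusted p alone 29.6% were higher and 28.9% lower. Of 27 genes of the MAP kinase cascade and its nuclear targets, all were tested, 0 were called higher and 2 lower, with a median log2 fold change of -0.026, while 7 were higher and 10 lower by the adjusted p alone. MAPK8, which encodes the Jun kinase JNK1, fell from 6094 ± 45.2 to 2369 ± 34.6 normalized counts (SD, n = 3), a log2 fold change of -1.36 ± 0.05 (SE). RPS6KA5, which encodes the chromatin kinase MSK1, fell from 505 ± 29.1 to 183 ± 15.8 (SD, n = 3), or -1.46 ± 0.09 (SE). The edgeR adjusted p was 1.7e-12 and 8.9e-10. SRF fell by 0.45 and its ETS partner ELK1 rose by 0.40 on the log2 scale. MAP2K1 did not pass.

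Of 15 feedback inhibitors of the MAP kinases, 14 were tested, 2 were called higher and 1 lower, with a median of 0.057. Over all tested genes the shares called were 16.2% and 6.34%. SPRY2, an inhibitor of Ras signalling, fell from 391 ± 27.9 to 190 ± 16.3 normalized counts (SD, n = 3), or -1.04 ± 0.09 (SE) in log2 (edgeR adjusted p 8.8e-08). It missed the 2-fold threshold with library size scaling (-0.88) and without Delta-TRRAP replicate 1 (-0.99). DUSP4 and SPRED3, called higher, were low, with 35.2 and 94.7 normalized counts in Delta-TRRAP. DUSP1, itself an immediate early gene, rose by 0.53 ± 0.08 (SE) on the log2 scale, and DUSP6, at 17.1 to 18.4 normalized counts on average, did not pass.

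Of 20 genes commonly cited as AP-1 targets, 15 were tested, 4 were called higher and 2 lower, with a median log2 fold change of 0.25. By the adjusted p alone 8 were higher and 4 lower. Over all tested genes the shares were 16.2% called higher and 6.34% called lower, and 29.6% and 28.9% by the adjusted p alone. IL6, a cytokine, rose from 40.9 ± 11.4 to 170 ± 22.6 normalized counts (SD, n = 3). PLAU, the urokinase protease, fell from 440 ± 27.2 to 167 ± 4.65. CCND1, cyclin D1, had the largest fall of the list, at -4.91 ± 0.12 (SE). All 3 passed with edgeR adjusted p between 3.0e-14 and 5.0e-08, and the list had no common direction. Matrix protease genes were low, with MMP3, MMP9 and MMP10 not tested and MMP1 at 46.0 ± 5.59 and 68.4 ± 7.14 normalized counts (SD, n = 3).

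Stress genes were counted because several of the 10 genes also respond to heat, damage and amino acid shortage. Of 16, 13 were tested, 1 was called higher and 0 lower, with a median of -0.15. GADD45A, a growth arrest gene, rose from 4009 ± 108 to 8860 ± 678 normalized counts (SD, n = 3), or 1.14 ± 0.06 (SE) in log2 (edgeR adjusted p 1.5e-10). By the adjusted p alone 3 were higher and 6 lower. Over all tested genes the shares were 16.2% called higher and 6.34% called lower, and 29.6% and 28.9% by the adjusted p alone. DDIT3, a factor of the unfolded protein response, rose by 0.73 and BAG3, a chaperone partner, by 0.34 on the log2 scale. The heat shock genes DNAJB1, HSPH1 and HSP90AA1 fell by 0.23, 0.41 and 0.61 on the log2 scale, while ATF4, CHAC1 and TRIB3 of the amino acid response fell by 0.47, 0.52 and 0.30. ASNS and SESN2 of the same list, at -0.14 and -0.13, did not pass the adjusted p. HSPA1A and HSPA1B were too low to be tested, and these near-identical copies share most reads, which counting of unique matches leaves out.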

How the data were processed

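The authors aligned reads to hg38 with STAR, discarding reads that map to several places, and deposited 1 file of gene counts per library, made with HTSeq 2.0.2 in reverse-stranded union mode; their methods name GENCODE 32. The deposited counts were used as they are. A deposited table of counts divided by size factors, with 3 columns of another condition, and a table of the authors' fold changes, errors and p-values were not used.

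Of 34998 genes with a count, the 19114 that averaged 5 or more normalized counts entered the test in edgeR 4.0.16 under R 4.3.3 (TMM, quasi-likelihood F test, group only, Benjamini-Hochberg adjustment over all genes tested). A gene was called at an adjusted p up to 0.01 with a change of 2-fold or more, the thresholds of the study. Fold changes are Delta-TRRAP over WT. Intervals of fold changes are 95% and rest on the fitted spread. Log2 CPM used a prior count of 2. The edgeR, limma-voom and DESeq2 tests were tried on simulated counts first. Positions and exon lengths are from GENCODE 44 on GRCh38, the assembly also named hg38, and promoters are from RefSeq.

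All 10 genes were named. From each list the 4 called genes with the largest change, an average of 100 or more and groups that did not overlap were named, and for FOS, JUN and EGR1 the 2 genes with the highest r; some genes are not reported here. Members and lists were chosen with earlier results of these data known. The libraries are called biological replicates by the study, and p-values measure the spread between libraries of 1 clone per group. Pairs within a group differed by 5.43 to 17.5 times the chi-square per degree of freedom expected from counting. Alternatives were DESeq2 1.42.0, limma-voom (limma 3.58.1), RLE and library size scaling, other filters, a fold change of 1.5, a block for the replicate number, and each library left out in turn.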

Additional observations from a re-analysis of the deposited data

How the results depend on the processing

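Of the 10 genes, 3 were called changed under DESeq2, limma-voom, RLE scaling, both other filters and the replicate block. The number was 4 with library size scaling, where JUN passed a fold change of 2, and 5 at a fold change of 1.5, since the rule was looser. Without one library it was 3 to 4, and 5 to 6 genes passed the adjusted p. With library size scaling 7 passed it, and with no filter 6. The log2 fold change of ATF3 was -0.0404 to 0.0288 and that of IER2 -0.0474 to 0.0131 without one library, and IER2 was at 0.0023 by DESeq2 and 0.144 by library size. FOSL1 passed the adjusted p with no filter and without WT replicate 1, at -0.23 and -0.29. Causes were not tested.

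Same-numbered libraries had correlations of their deviations of 0.0918, -0.0866 and -0.20 over 11462 genes, and were not taken as pairs; with the replicate block FOS changed by 0.77 (edgeR adjusted p 5.1e-06), FOSB by 1.67 (edgeR adjusted p 1.3e-09) and no call changed, with 5 genes past the adjusted p. The lists together had 23 called genes, 22 by DESeq2 and 22 to 25 without one library. In the main fit 22.5% of all tested genes were called in either direction. With library size scaling the total was again 23, with BATF3 and SPRY2 lost and TIMP1 and VIM gained. Without WT replicate 2, BATF2 and IER5L were gained. With a window of 5 Mb the neighbourhood median was -0.17 for JUN and -0.157 for JUND, and that of FOSL2 turned from 0.059 to -0.049. With the longest transcript as length, WT shares were 31.6% for FOS, 4.41% for FOSB, 63.4% for FOSL1 and 13.5% for JUN, and Delta-TRRAP shares were 21.9% for JUN and 51.2% for JUND. Depth limits FOSL2, EGR2, EGR3 and other genes under about 100 counts, where counting error alone is large.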
